A study of Homo sapiens with 2 samples.

Results

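The genes described here encode the matrix metalloproteinases (MMP), the ADAM and ADAMTS metalloproteinases, and the tissue inhibitors of metalloproteinases (TIMP), as transcribed in lung fibroblasts with and without knockdown of periostin. They were chosen by a pattern in the gene symbol. Spots were named through the RefSeq accession that both scanner files give them, and of the 21743 genes named in this way 67 were members, namely 23 MMP, 21 ADAM, 19 ADAMTS and 4 TIMP genes, read by 90 probes on 108 spots. A further 2 genes of the annotation fit the same naming pattern, ADAM28 and MMP23A, and no probe carried an accession that matched them.

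MRC-5 is a widely used cell line of fibroblasts from human fetal lung. Periostin is a matrix-associated protein secreted by fibroblasts, encoded by POSTN. In the experiment 1 culture was transfected with periostin siRNA at 10 nM for 48 h and 1 culture with a control siRNA, whose dose and time are not given in the sources used here, and the Cy3-labelled product of total RNA was read on a single-colour Agilent expression array, 1 for each condition. With 1 array per condition, no test between the conditions was possible, no p-value is given, and no difference below has a replicate check. In RNA from a whole culture, fewer cells of a kind and less RNA per cell cannot be told apart.

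Metalloproteinases of these families use a zinc ion to cut proteins outside the cell or at its surface. MMPs cut collagens and other matrix proteins, ADAMs release the outer parts of membrane proteins such as growth factors and cytokine receptors, and ADAMTS enzymes are secreted and cut proteoglycans, procollagens or von Willebrand factor. TIMPs bind and block the active site. In lung fibroblasts these enzymes and inhibitors are known for their part in turning over the matrix that builds up in fibrosis.

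The values are scaled signals, that is, the background-subtracted brightness of a spot after both arrays were brought to a common 75th percentile of 377. A log2 ratio is the log2 of the periostin siRNA signal over the control siRNA signal, so that values below 0 are lower with periostin siRNA, and where a pair of signals is given without naming the arrays the control siRNA value comes first. The error is the SD over replicate spots, or the error that the scanner software propagates for a single spot, which was 0.20 on the log2 scale for all but dim probes. Neither covers the difference between cultures. Probes differ in how brightly they report a transcript, so signals are compared only within a gene, apart from sums over lists of cell markers. By the flag of the software 58.0% (control siRNA) and 58.9% (periostin siRNA) of the spots were well above background, and no spot was saturated.

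POSTN, which the siRNA targets, was at a scaled signal of 2638 in the control culture and at 280 after its siRNA. Its log2 ratio was -3.24 (propagated error 0.20, 1 spot), which is 9.43-fold lower. All 10 fibroblast markers were well above background on both arrays, with log2 ratios from -0.54 to 0.83. Some markers of other cells were also measured. Among 9 macrophage and neutrophil markers 5 were well above background on at least 1 array, CD163, HLA-DRA, S100A8 and S100A9 were not on either, and the signals of the list summed to 458 with control siRNA and 721 with periostin siRNA, of which CD14 had 287 and 549. CSF1R went the other way, with 42.1 and 23.7, a log2 ratio of -0.83 ± 0.28 (SD, n = 10 spots). The 4 other measured markers were above 0, with CSF3R at 0.07. Among 8 epithelial markers 4 were well above background, CDH1, KRT5, SFTPB and NKX2-1 were not, and the sums were 229 and 361. Among 6 endothelial markers 4 were well above background, PECAM1 and EMCN were not, and the sums were 5616 and 5334, of which TEK had 5457 and 5175. EPCAM, an epithelial adhesion molecule, stood out with 34.6 and 135, a log2 ratio of 1.97. Each sum adds probes of unlike brightness, including some not well above background, so it does not measure the share of a cell type. The part of these markers in the results was not tested.

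Of the 67 members, 44 were well above background on at least 1 array (65.7%), against 73.9% of all named genes. The signal was well above background on both arrays for 42 members, and on the control siRNA array alone for ADAMTS3 and MMP16, for which the ratio is a bound. All 4 TIMP genes, 16 of 23 MMP genes, 13 of 19 ADAMTS genes and 11 of 21 ADAM genes were measured. The other 23 members were well above background on neither array and have no ratio. They were MMP7, MMP8, MMP13, MMP20, MMP21, MMP26 and MMP27, ADAM2, ADAM5, ADAM6, ADAM7, ADAM18, ADAM20, ADAM21, ADAM22, ADAM29 and ADAM30, and ADAMTS6, ADAMTS15, ADAMTS16, ADAMTS17, ADAMTS18 and ADAMTS20. Several of these are known from other tissues, such as MMP20 from tooth enamel and ADAM2, ADAM18, ADAM29 and ADAM30 from the testis, and ADAM5 and ADAM6 are annotated as pseudogenes.

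The measured members lay on both sides of 0 in similar numbers, with wide differences between genes. The log2 ratio was below 0 for 20 of the 44 members beside 45.5% of all genes, and above 0 for 24, with a median of 0.03 beside 0.06 over the 16052 genes that had a ratio. The median size of the log2 ratio without its sign was 0.54 for the members and 0.36 for all genes. By more than 3-fold, 3 members were lower, MMP10, MMP1 and ADAM12, where 2.75% of all genes were lower by as much. In the other direction 1 member, ADAMTS14, was higher by more than 3-fold, where 3.37% of all genes were. Past 2-fold in either direction lay 12 of the 44 members (27.3%) beside 14.4% of all genes, with 6 members lower beside 6.42% of all genes and 6 higher beside 7.97%. The share past 3-fold was 9.09% for the members and 6.12% for all genes. With so few members past 3-fold these shares are given as a description.

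**Figure D1:**
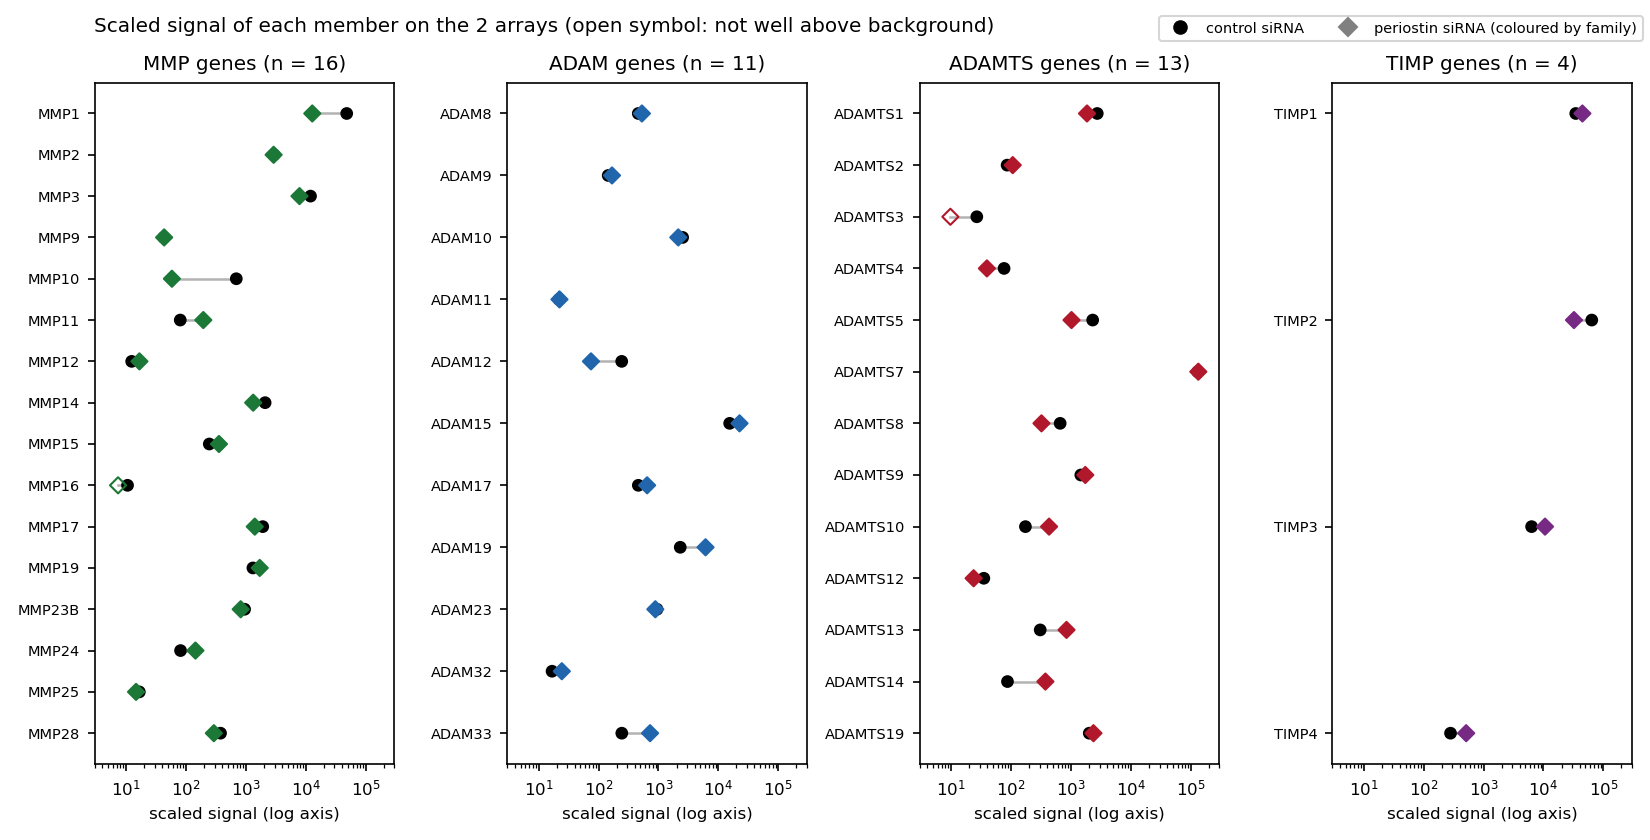
Scaled signal of each measured member (log axis) with control siRNA (black circles) and periostin siRNA (coloured diamonds), 1 array per condition, in 1 panel for each family; open symbols were not well above background. MMP10, MMP1 and ADAM12 show the control siRNA circle well to the right, and ADAMTS14, ADAM33 and ADAM19 show the periostin siRNA diamond to the right.

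**Figure D2:**
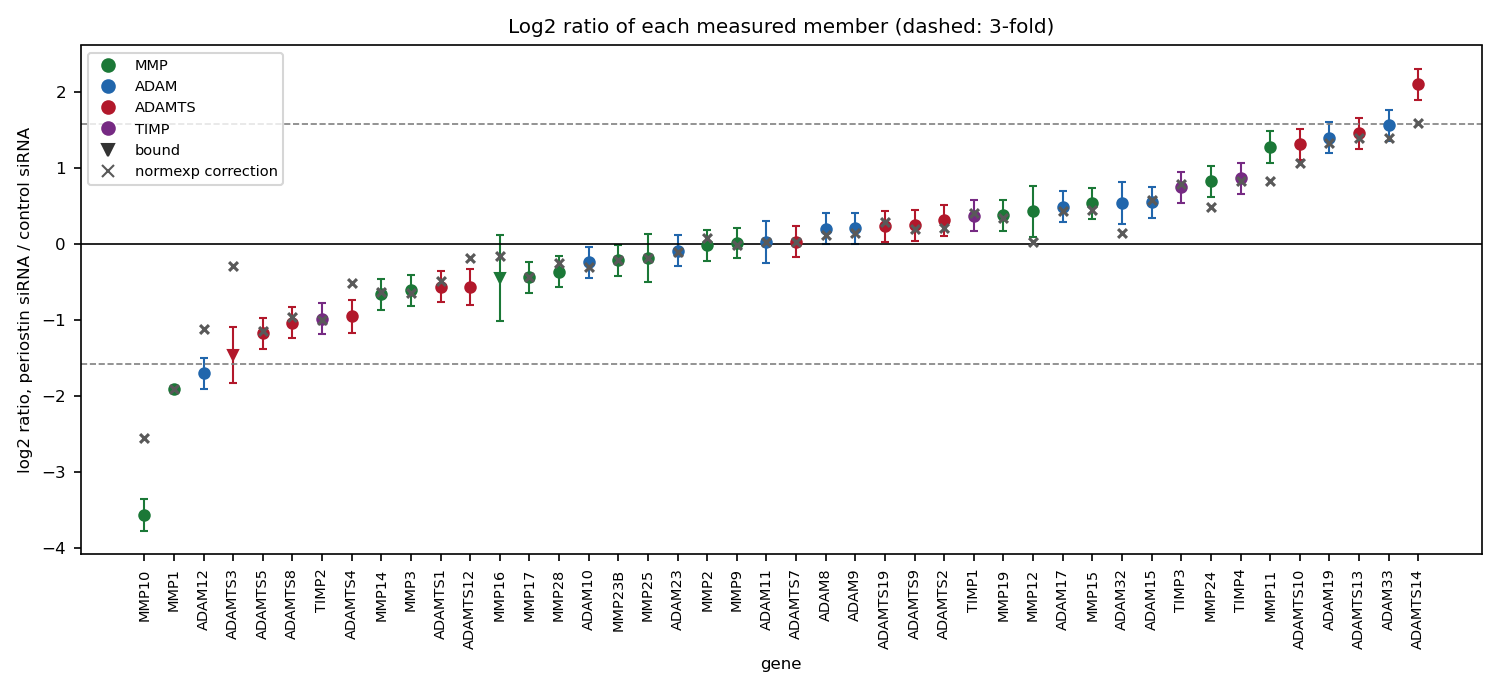
Log2 ratio (periostin siRNA over control siRNA) for the 44 measured members in order, coloured by family, with the SD over spots or the propagated spot error as bars; triangles are bounds, crosses show the normexp background correction, and dashed lines mark 3-fold. The points run from -3.57 for MMP10 to 2.10 for ADAMTS14, and the crosses of MMP10, ADAM12 and ADAMTS3 lie closer to 0 than the points.

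The 3 collagenases cut fibrillar collagen, and MMP1, interstitial collagenase, was the only one measured. Its probe was printed 10 times. With control siRNA the spots lay between 46034 and 50198 (median 47671), and with periostin siRNA between 11879 and 13532 (median 12780). No spot of one array reached the range of the other, and the log2 ratio was -1.91 ± 0.04 (SD, n = 10 spots), 3.75-fold lower with periostin siRNA. An outlier flag was set on 2 of the control siRNA spots and 1 of the periostin siRNA spots, and over all scalings and corrections tried the ratio lay between -2.04 and -1.82. MMP8 and MMP13, the neutrophil collagenase and collagenase of cartilage and bone, were well above background on neither array.

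Among the stromelysins MMP10 was far lower with periostin siRNA and MMP3 was lower to a smaller extent. MMP10, stromelysin-2, which cuts proteoglycans and activates other MMPs, had a signal of 690 with control siRNA and 58.2 with periostin siRNA. The log2 ratio was -3.57 (propagated error 0.21), 11.9-fold lower, and POSTN was at -3.24. The normexp background correction starts from the raw median spot and background signals, and adds an offset of 50 to each signal. With it MMP10 was at -2.55 and POSTN at -2.99, so the order of the pair turned. MMP3, stromelysin-1, had 11957 and 7828, a log2 ratio of -0.61 (error 0.20). MMP11, stromelysin-3, a stromal enzyme that is activated inside the cell, went the other way, with 80.2 and 194, a log2 ratio of 1.28 (error 0.21) that became 0.83 with normexp. MMP12, macrophage elastase, was dim at 12.4 and 16.7, with a log2 ratio of 0.43 (error 0.33), and the matrilysins MMP7 and MMP26 were not well above background.

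MMP10, MMP1 and MMP3 are neighbours. In the RefSeq annotation 9 protein-coding MMP genes lie side by side on chromosome 11, in the order MMP7, MMP20, MMP27, MMP8, MMP10, MMP1, MMP3, MMP12 and MMP13. The 4 genes of the cluster that were well above background stand next to each other in this order. Of these MMP10, MMP1 and MMP3 were lower with periostin siRNA at log2 ratios of -3.57, -1.91 and -0.61, and MMP12 was at 0.43 with the largest error. The remaining 5 genes of the cluster were well above background on neither array.

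**Figure D3:**
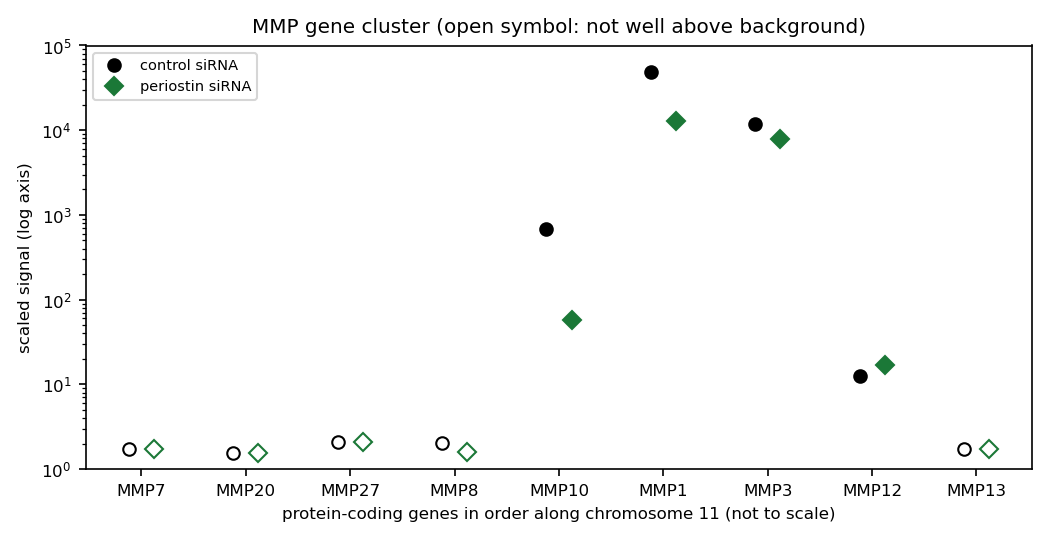
Scaled signal (log axis) of the 9 MMP genes of the chromosome 11 cluster in their order along the chromosome, with control siRNA (black circles) and periostin siRNA (green diamonds), 1 array each; open symbols were not well above background. MMP10, MMP1 and MMP3 have the lower signal with periostin siRNA, and the genes at the flanks are open on both arrays.

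Promoter sequences are shown for members of this cluster that share letters near the start site, of which some were well above background and others were not. The sequences are from RefSeq on GRCh38.p14, in windows of 300 bases that run from 250 before to 50 after the annotated start, each written 5′ to 3′ on the strand of the gene. Capitals mark matches to TGANTCA and to TATAAA, the TATA box. TGANTCA, called the AP-1 match here, is a loose pattern for the letters bound by AP-1, a transcription factor known to act on MMP genes. It allows any base at N, which is broader than the AP-1 site itself. The match reads TGAATCA in MMP10 and MMP20 and TGAGTCA in MMP7. MMP10 lies at chr11:102780579-102780878, MMP7 at chr11:102530698-102530997 and MMP20 at chr11:102625283-102625582, all on the minus strand.
MMP10: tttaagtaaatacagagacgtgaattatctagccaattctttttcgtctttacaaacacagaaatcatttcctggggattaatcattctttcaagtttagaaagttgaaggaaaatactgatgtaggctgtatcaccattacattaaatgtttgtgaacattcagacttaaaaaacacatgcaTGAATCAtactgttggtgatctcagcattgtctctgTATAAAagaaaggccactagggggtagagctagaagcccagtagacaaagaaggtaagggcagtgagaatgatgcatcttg
MMP7: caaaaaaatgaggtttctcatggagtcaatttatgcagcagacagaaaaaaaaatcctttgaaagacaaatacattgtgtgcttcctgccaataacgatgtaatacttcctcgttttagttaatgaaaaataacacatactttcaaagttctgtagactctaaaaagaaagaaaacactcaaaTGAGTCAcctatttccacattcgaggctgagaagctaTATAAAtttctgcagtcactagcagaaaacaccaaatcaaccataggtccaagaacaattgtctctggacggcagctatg
MMP20: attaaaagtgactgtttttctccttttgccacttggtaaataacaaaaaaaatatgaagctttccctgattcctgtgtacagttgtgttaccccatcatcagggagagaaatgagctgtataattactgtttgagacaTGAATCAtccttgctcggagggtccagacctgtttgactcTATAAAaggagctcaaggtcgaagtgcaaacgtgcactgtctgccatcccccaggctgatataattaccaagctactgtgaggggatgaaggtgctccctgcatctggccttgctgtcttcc
In MMP10 the AP-1 match began at -67 and the TATAAA match at -31 from the start, and in MMP7 they began at -67 and -30. In MMP20 the AP-1 match began at -112 and the TATAAA match at -72. MMP10 was well above background with control siRNA, at 690. MMP7, at 1.75, and MMP20, at 1.53, were not.

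On both strands, the loose pattern TGANTCA was found in 7.71% of all 35116 promoter windows and in 4 of the 40 windows of members (10%), the remaining one being ADAMTS12 at -84. TATAAA was found in 11.5% of all windows and in 8 member windows (20%). A further set of letters, GGGCGG, the GC box, was found in 45% of all windows and in 26 member windows (65%). Windows were given for 39 members, and MMP1 and MMP3 were not among them. In the windows of members no match to one of these motifs overlapped a match to another, although GC box matches could share letters with each other, and a match is a description of the sequence only.

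The gelatinases, which cut denatured collagen and basement membrane collagen, had nearly equal signals on the arrays. MMP2, known as a constitutive product of fibroblasts, had 2932 and 2898, a log2 ratio of -0.02 (error 0.20) whose sign turned with normexp and without scaling. MMP9 was read by 10 spots, between 36.0 and 48.9 with control siRNA and between 38.2 and 50.9 with periostin siRNA. These ranges overlap, and the log2 ratio was 0.02 ± 0.20 (SD, n = 10 spots), with a sign that turned with normexp, with scaling on the median and with quantile normalization.

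The membrane-type MMPs are anchored at the cell surface, and all 6 were measured. Of these 4 were below 0, beside 45.5% of all genes, and 2 above, with a median log2 ratio of -0.31. MMP14, the membrane collagenase that activates MMP2 together with TIMP2, had 2090 and 1321, a log2 ratio of -0.66 (error 0.20). MMP17, which is attached by a lipid anchor, had 1907 and 1405, a log2 ratio of -0.44. MMP15 had 245 and 355 at 0.54, and MMP24 had 81.2 and 144 at 0.82, which was 0.48 with normexp. MMP16 was well above background with control siRNA alone, at 10.6, and its bound with periostin siRNA, 1.36-fold lower, is a log2 ratio of -0.45 that is smaller than its error of 0.56 and was -0.16 with normexp. The remaining member, MMP25, was dim, and its probes gave -0.18 and 0.55. With the mean over the probes 3 of the 6 were below 0 and the median of the class was -0.13, and over the 5 genes well above background on both arrays it was -0.18.

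Of the other MMPs 3 were measured. MMP19, an enzyme of basement membrane turnover, had 1308 and 1699, a log2 ratio of 0.38 with a second probe at 0.57. MMP28, epilysin, had 377 and 292 at -0.37. MMP23B had 950 and 818 at -0.22, and this probe may also read the near-identical copy MMP23A. Over all 16 measured MMP genes the ratio was below 0 for 10, beside 45.5% of all genes, and the median was -0.20. Under the alternatives the median lay between -0.33 and -0.12, with 9 to 11 genes below 0.

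Among the ADAM genes with the catalytic zinc motif ADAM12 was lower, and ADAM19 and ADAM33 were higher by more than 2-fold. The brightest ADAM12 probe, on the long, membrane-bound form of this enzyme, had 244 and 74.8, a log2 ratio of -1.70 (error 0.21), 3.26-fold lower. With normexp it was -1.12. The pair of probes on the short, secreted form gave 38.6 and 19.7 at -0.97, and 54.7 and 41.3 at -0.41, so that all 3 probes were below 0 while the mean over them, -1.03, did not reach 3-fold.

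ADAM19, meltrin beta, which sheds neuregulin, had 2309 and 6098, a log2 ratio of 1.40 (error 0.20), and its dimmer second probe gave 1.11. ADAM33, a gene linked to asthma and known from airway fibroblasts and smooth muscle, had 245 and 724 at 1.57 (error 0.20), just inside the 3-fold line at 2.96-fold. Without scaling between the arrays ADAM33 passed 3-fold, while the mean over its probes was 1.04. Its other probes had 33.6 and 67.2, and 74.7 and 110, so that all 3 were higher with periostin siRNA.

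The main sheddases differed less. ADAM17, which releases tumour necrosis factor and ligands of the epidermal growth factor receptor, had 461 and 647, a log2 ratio of 0.49 (error 0.20). ADAM10, which cuts Notch receptors and cadherins, had 2532 and 2141 at -0.24 (error 0.20), with a second probe at -0.17. ADAM15, metargidin, had 15420 and 22530 at 0.55, with a second probe at 0.63. ADAM8 at 0.20 and ADAM9 at 0.21 lay within about 1 spot error of 0. Of the 8 measured genes of this class 6 were above 0, with a median of 0.35, beside 8745 of all 16052 genes with a ratio. This count held under all 9 other settings, although ADAM8 and ADAM9 were at 0.07 and 0.08 under scaling on the median.

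ADAMs that lack the catalytic motif act in adhesion and fertilization. Of these 3 were measured and none was past 2-fold, with ADAM23 at 945 and 887 (-0.09), ADAM11 at 22.0 and 22.3 (0.02, with a sign that turned under scaling on the median and quantile normalization) and ADAM32 at 16.8 and 24.4 (0.54, error 0.28).

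The promoter windows of ADAM12 and ADAM19 are shown because these related genes differed in opposite directions. ADAM12 lies at chr10:126388428-126388727 and ADAM19 at chr5:157575726-157576025, both on the minus strand, and capitals mark GGGCGG or its complement.
ADAM12: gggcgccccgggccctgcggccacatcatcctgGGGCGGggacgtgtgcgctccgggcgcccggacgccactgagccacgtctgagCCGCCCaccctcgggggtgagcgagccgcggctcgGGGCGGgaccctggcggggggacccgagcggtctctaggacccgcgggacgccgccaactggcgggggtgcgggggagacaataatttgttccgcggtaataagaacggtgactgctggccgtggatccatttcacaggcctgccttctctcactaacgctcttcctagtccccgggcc
ADAM19: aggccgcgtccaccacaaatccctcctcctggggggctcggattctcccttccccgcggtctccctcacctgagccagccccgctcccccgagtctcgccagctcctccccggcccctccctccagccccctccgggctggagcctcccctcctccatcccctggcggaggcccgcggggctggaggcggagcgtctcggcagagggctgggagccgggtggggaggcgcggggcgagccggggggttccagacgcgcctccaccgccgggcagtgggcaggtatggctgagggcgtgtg
The ADAM12 window, next to a ratio of -1.70, held 3 matches to the GC box. The ADAM19 window, next to a ratio of 1.40, held none, and neither held the AP-1 or TATAAA letters. GC box matches also stood in windows of other higher members, such as ADAMTS14 (log2 ratio 2.10) and MMP11 (1.28). Other lower members had them as well, such as MMP14 (-0.66) and ADAM10 (-0.24). A link between GC box matches and the direction of a difference was not tested.

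**Figure D4:**
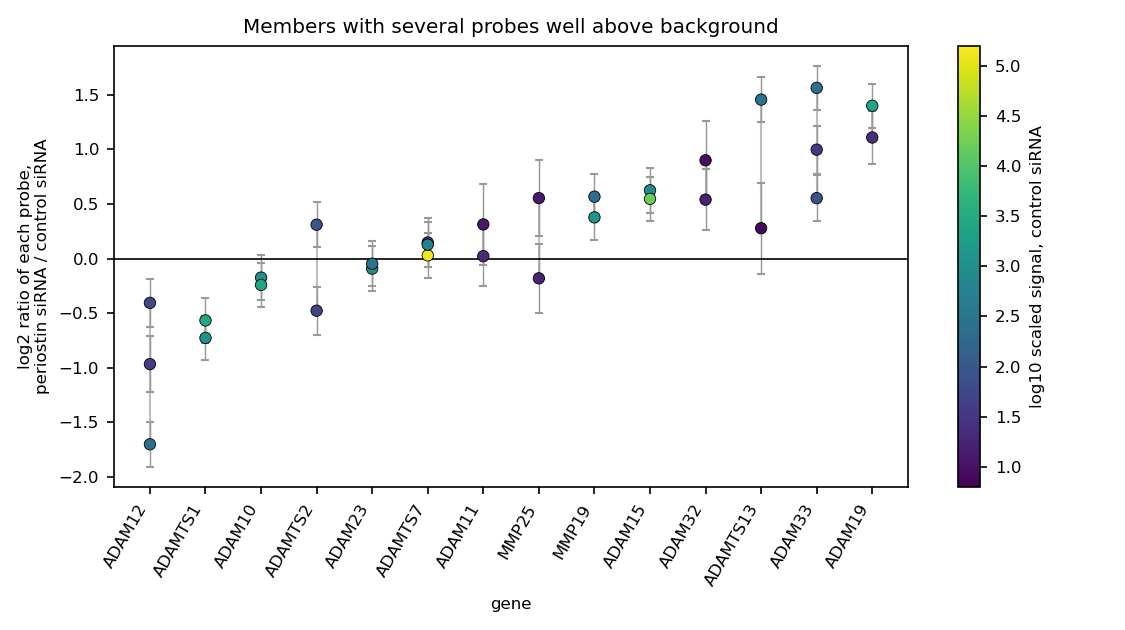
Log2 ratio (periostin siRNA over control siRNA) for each probe of the 14 members that had several probes well above background on both arrays, with the propagated spot error as bars and the colour giving the log10 scaled signal with control siRNA. The probes of ADAM12, ADAM33 and ADAMTS13 spread widely on one side of 0, and those of ADAMTS2 and MMP25 lie on both sides.

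Of the 14 members with at least 2 probes well above background on both arrays, 12 had all of them on the same side of 0. ADAMTS2 and MMP25 had probes on both sides.

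The ADAMTS proteoglycanases, which cut aggrecan and versican, had lower signals with periostin siRNA in 4 of the 5 genes measured, beside 45.5% of all genes. The median log2 ratio was -0.95. ADAMTS5, aggrecanase-2, had 2300 and 1020, a log2 ratio of -1.17 (error 0.20). ADAMTS8 had 660 and 322 at -1.04 (error 0.20), which was -0.96 with normexp. ADAMTS4, aggrecanase-1, had 76.5 and 39.6 at -0.95 (error 0.22), which was -0.51 with normexp. These 3 genes were between 1.93-fold and 2.26-fold lower. ADAMTS1, which also inhibits the growth of vessels, had 2742 and 1850 at -0.57, with a second probe at -0.73. ADAMTS9 was the exception with 1459 and 1733 at 0.25, and ADAMTS15 and ADAMTS20 were not well above background. The count of 4 below 0 held under all 9 other settings of scaling, background and probes, while the median lay between -1.08 and -0.51. ADAMTS1 and ADAMTS5 are neighbours on chromosome 21.

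The procollagen N-proteinases remove the amino-terminal propeptide of fibrillar procollagens, and the 3 genes of this class differed from each other. ADAMTS14 had 87.2 and 374, a log2 ratio of 2.10 (error 0.21), 4.29-fold higher. With normexp it was 1.59, still past 3-fold. ADAMTS3 had 26.8 with control siRNA and 9.73, not well above background, with periostin siRNA. This dim signal gives a bound of 2.76-fold lower, a log2 ratio of -1.46 (error 0.37). Normexp gave -0.29, so the size of this difference is uncertain. ADAMTS2 had probes in opposite directions, with 86.0 and 107 at 0.31 for the brighter and 49.4 and 35.4 at -0.48 for the dimmer, and the sign of the gene turned when the probes were averaged.

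The promoter window of ADAMTS14, the member with the highest ratio, lies at chr10:70672256-70672555 on the plus strand, and capitals mark GGGCGG or its complement.
ADAMTS14: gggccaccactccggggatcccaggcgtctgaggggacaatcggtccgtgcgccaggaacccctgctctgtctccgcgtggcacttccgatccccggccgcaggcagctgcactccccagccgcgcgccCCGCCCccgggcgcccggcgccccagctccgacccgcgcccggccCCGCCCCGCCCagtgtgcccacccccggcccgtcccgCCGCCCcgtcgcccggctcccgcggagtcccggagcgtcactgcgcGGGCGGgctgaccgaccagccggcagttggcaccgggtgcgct
It held 5 matches to the GC box, from -121 to 8, of which those at -76 and -71 share a letter and stand as 1 run of capitals, and none to the AP-1 or TATAAA letters.

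Of the other ADAMTS genes ADAMTS13 and ADAMTS10 were higher by more than 2-fold. ADAMTS13, the enzyme that trims von Willebrand factor, had 307 and 842, a log2 ratio of 1.46 (error 0.20), whereas its second probe, at 7.86 and 9.53, gave 0.28 (error 0.42) and the mean over both was 0.87. ADAMTS10, which binds fibrillin microfibrils, had 174 and 431 at 1.31 (error 0.20). ADAMTS19 had 2019 and 2369 at 0.23, and ADAMTS12, an enzyme that cuts cartilage oligomeric matrix protein, had 35.1 and 23.7 at -0.57, which was -0.19 with normexp. The brightest ADAMTS7 probe had 130433 and 133081, a log2 ratio of 0.03 whose sign turned under scaling on the median and when probes were averaged. The other ADAMTS7 probes had control siRNA signals of 518, 31.7 and 9.35, and ADAMTS7 has near-identical pseudogene copies, so its value is uncertain.

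The TIMP genes were all measured, and TIMP2 was lower while the other members of the family were higher. TIMP2, which inhibits MMP2 and also helps MMP14 to activate it, had 63961 and 32297, a log2 ratio of -0.99 (error 0.20), 1.98-fold lower. Under scaling on the median it was -1.11, past 2-fold. TIMP1, a broad inhibitor of secreted MMPs, had 34586 and 44634, a log2 ratio of 0.37 (error 0.20). TIMP3, which is bound to the matrix and also inhibits ADAM17 and ADAMTS enzymes, had 6341 and 10618 at 0.74 (error 0.20), and TIMP4 had 282 and 513 at 0.87 (error 0.20). No TIMP gene was past 2-fold with the scaling on the 75th percentile, and the median of the family was 0.56. The directions held under all 9 other settings, which reprocess the same arrays. Each TIMP gene is read by a single unflagged probe, so the mean over probes and the filters on dim or outlier spots could not differ.

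**Figure D5:**
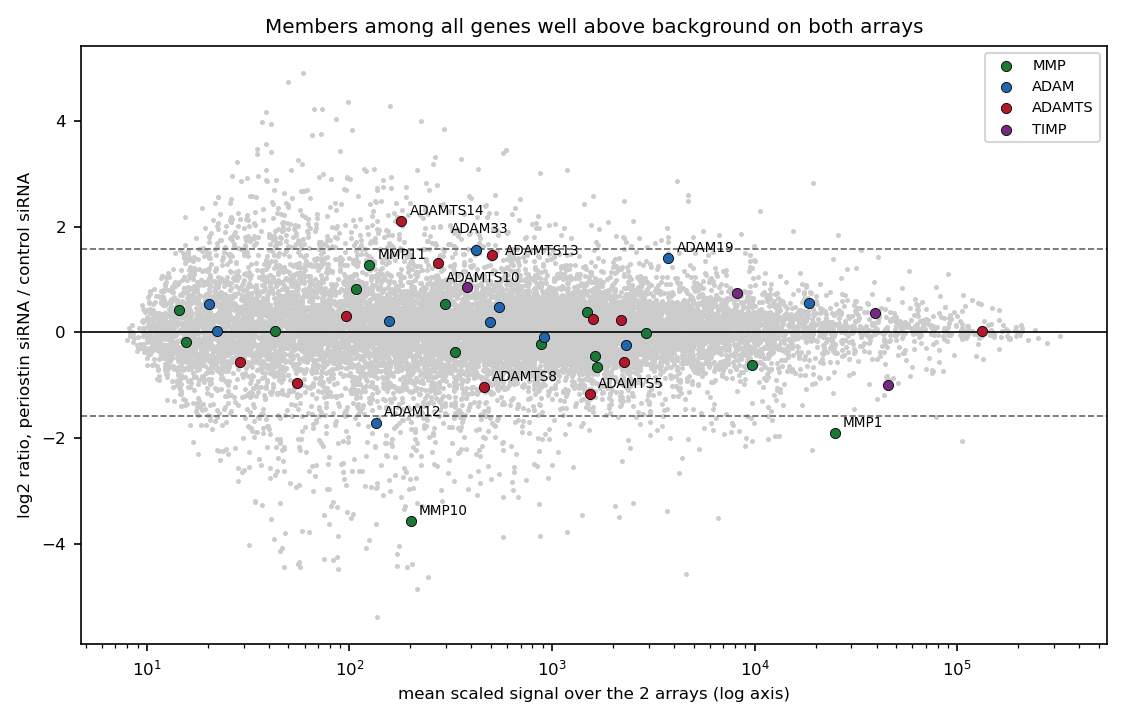
Log2 ratio (periostin siRNA over control siRNA) against the mean scaled signal over both arrays (log axis) for all genes well above background on both arrays (grey), with the 42 such members coloured by family and dashed lines at 3-fold. MMP10 and ADAMTS14 lie outside the lines among genes of similar signal, and MMP1 lies below the lower line at high signal, where the grey points are narrow.

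A list of 29 genes that regulate or partner these enzymes, none a member, was described in the same way. Of these 22 were measured, 8 below 0, beside 45.5% of all genes, and 14 above. The median log2 ratio was 0.34 beside 0.06 over all genes. None was lower by more than 3-fold beside 2.75% of all genes, and 4 were higher (PAPLN, RHBDF2, TSPAN15 and TSPAN10) beside 3.37%. Past 2-fold, 2 were lower beside 6.42% of all genes and 6 were higher beside 7.97%. When the probes were averaged, PAPLN at 1.29 and TSPAN10 at 1.08 were no longer past 3-fold. RECK at -0.63 and PCSK5 at -0.79 were then no longer past 2-fold. RECK, a membrane-anchored inhibitor of MMPs, had 3266 and 1142, a log2 ratio of -1.52 (error 0.20), while its dimmer probe had 127 and 152 at 0.26. PCSK5, a proprotein convertase of the kind that activates these enzymes, had 1398 and 650 at -1.10, with a second probe at -1.29. Its remaining probe was well above background on neither array, and with normexp PCSK5 was at -0.98. A2M, a plasma protein that traps proteases of all classes, had 2208 and 6255, a log2 ratio of 1.50 ± 0.05 (SD, n = 10 spots).

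RHBDF2, an inactive rhomboid needed for the maturation of ADAM17, had 289 and 1475, a log2 ratio of 2.35 (error 0.20), beside 0.49 for ADAM17. The related RHBDF1 was at -0.11, and FRMD8, also on the list, was at -0.19 with a second probe at 0.14. The tetraspanins that guide ADAM10 to the cell surface were also among the higher genes, with TSPAN5 at 1048 and 2324 (1.15) and TSPAN10 at 668 and 2311 (1.79, with a second probe at 0.38), beside -0.24 for ADAM10. TSPAN15 was not well above background with control siRNA, at 7.64, and had 32.3 with periostin siRNA. This gives a bound of 4.23-fold higher, a log2 ratio of 2.08 (error 0.40). Normexp gave 0.37, so the size of this difference is uncertain. TSPAN14 went the other way in all 4 of its probes, with a log2 ratio of -0.73 for the brightest. PAPLN, papilin, an ADAMTS-like matrix protein with inhibitor domains, had 54.0 and 399, a log2 ratio of 2.88 (error 0.21), which was 2.07 with normexp, and its second probe gave -0.30.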

How the data were processed

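Single-colour Agilent arrays, 1 per condition, read the RNA of MRC-5 cells. For both, the authors deposited the scanner intensity of each spot, background-subtracted and detrended by Feature Extraction (version 11.5.1.1 per the file headers, 12.0.3.1 in the submitters' processing notes), and a table of normalized intensities. Its values for probes printed once equalled the scanner intensity times 3.65 for control siRNA and 3.54 for periostin siRNA, and its column medians were 75.7 and 82.8. The 75th percentiles of this table were 1358 and 1357, nearly equal, as after a scaling to the 75th percentile by a factor for each array. The sources used here do not name the normalization method.

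Here log2 of the processed intensity of the 58717 non-control spots was taken and each array's 75th percentile (372 with control siRNA, 383 with the other) was subtracted. Signals are printed after multiplication by a common 377. Replicate spots were averaged as log2 values, and the brightest probe stood for a gene. A probe counted as well above background by the flag of the software. Where this held on 1 array alone, the ratio was a bound against the dim signal itself or, if higher, that array's lowest signal well above background, 7.55 for control siRNA and 7.77 for periostin siRNA. Over 667 probes printed 10 times, the log2 ratio had a pooled SD between spots of 0.12. The number of arrays limits the precision. RefSeq accessions named 65.1% of the spots, and the annotation on GRCh38.p14 gave gene order and promoter windows, since the spots were placed on no genome.

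The members and lists were chosen with earlier results of these data known. The text names every TIMP, every member past 2-fold, the 5 brightest of each other family, 8 genes best known in fibroblasts, and regulators past 2-fold. Other members, TSPAN14, RHBDF1 and FRMD8 were named after their values were seen, to account for each class. No test was run. The alternatives were normexp (offset 50), other scalings, quantile normalization, the deposited table, the mean over probes, filters on dim or outlier spots, and other fold thresholds. Normexp was run on the median spot and background signals, not on the processed intensity, so the input changed as well as the correction. Scripts used Python 3.11.15, numpy 2.4.6, pandas 2.3.3, matplotlib 3.10.9, and R 4.3.3 with limma 3.58.1, and were tested on simulated data.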

Additional observations from a re-analysis of the deposited data

How the results depend on the processing

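Of the 44 measured members, 36 kept the sign of their log2 ratio under all 9 other settings. ADAMTS3 and MMP16 kept it under the 8 in which they had a ratio. The sign turned in 1 or more of them for ADAM11, ADAMTS2, ADAMTS7, MMP2, MMP25 and MMP9. All settings reprocess the same arrays, and several could not change a gene read by a single unflagged probe. The deposited table moved the median of all genes by only -0.00043. None of the 12 members past 2-fold turned in the settings that gave it a ratio, and 9 of them were still past 2-fold with the normexp background correction. That correction gave -2.99 for POSTN and left 192 genes lower and 143 higher by more than 3-fold, against 441 and 541. Scaling on the median moved the median of all genes by -0.13 and that of the members to -0.10, with 525 genes lower and 453 higher. Without scaling, 2 members (ADAMTS14 and ADAM33) lay above 3-fold. With a threshold of 2-fold, 6 members were lower and 6 higher, and with 4-fold 1 was lower, MMP10, and 1 higher, ADAMTS14. Dim probes limit MMP12, MMP16, MMP25, ADAM11, ADAM32 and ADAMTS3 most. Naming by a gene symbol column was not run, because the scanner files used here hold no such column. No paired analysis was possible because the conditions had 1 array apiece, so no replicate could be left out either. The cause of these shifts was not tested.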
